A study of Oryza sativa Japonica Group and Oryza sativa Indica Group with 24 samples.

Results

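MADS-box factors are transcription factors that share a DNA-binding domain and act as dimers and larger complexes. In grasses, members of the SOC1 and SVP classes act around the floral transition, members of the AP1/FUL class with MADS34 turn the shoot meristem into an inflorescence meristem, and members of the B, C, D, E and AGL6 classes then lay down the organs of the floret. Panicle initiation is the stage at which the first of these steps takes place in rice. The members described here are all genes whose symbol or synonym in the gene table is MADS followed by a number, with every probe set that the platform annotation gives to them and with no filter on level. They are 31 genes with 39 probe sets, out of 17905 genes with a probe set of their own and 57258 probe sets that are not controls. MADS14, MADS15, MADS23 and MADS27 have more than 1 probe set, and the probe sets of 1 gene are readings of the same transcripts, not separate evidence. The gene table also lists the names MADS2 and MADS28 for the gene called MADS18 here.

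The study measured total RNA from crown and growing point tissue of rice at panicle initiation on 24 Affymetrix arrays, 1 sample per array. There are 4 sets of 6 arrays, each with 3 unstressed control arrays and 3 salt arrays, and the titles call the replicates biological. The sets are m103, a japonica cultivar that the design text calls sensitive, agami, a japonica it calls tolerant, and 2 sets whose titles both say ir29. That text also lists 2 indica cultivars, ir29 (sensitive) and ir63731 (tolerant). No title carries ir63731, so the ir29-labelled sets are kept apart as first and second, and neither is given a tolerance class. The description field calls every sample unstressed, so control and salt are taken from the titles and the treatment field. No label gives the salt level, its duration, the age of the plants or the number of plants per sample.

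Values are scaled signals, with each array multiplied so that its trimmed mean is 500. Replicate arrays of a group correlated with Pearson's r of 0.960 to 0.971 over probe sets. The second ir29-labelled set holds the arrays with the highest actin 3' to 5' ratio, where a higher ratio is a sign of lower RNA integrity. The ratio was 10.1 and 9.34 in its salt replicates 2 and 3 against 4.11 to 7.37 in the other 22 arrays. As for the labelled tissue, 4 KNOX genes of the growing point (OSH1, OSH6, OSH71 and OSH43) were measured, and all 4 lay above the 40th percentile of mean level. Their summed signal was higher in salt than in control arrays without overlap in m103 (5470 to 6620 in control, 8250 to 9330 in salt), in the first ir29-labelled set (2550 to 3220, then 3470 to 5230) and in the second (3060 to 4370, then 4810 to 6000). In agami the ranges overlapped (7430 to 8260 and 8150 to 9380). OSH1 makes up most of this sum in m103, where its brighter probe set had a mean of 4470 in control and 6760 in salt. The brighter OSH43 probe set was lower in salt in m103 (means of 210 and 146) and in the first ir29-labelled set (139 and 106), and OSH6 was level in the second (388 and 385). By the brightest probe set, none of the 4 genes passed the limma test described below in any single set. In the mean of the sets 2 rose, where 9.39% of all probe sets were called. Of the other tissues, the root list has 24 genes, which are CASP1, LSI1, LSI2 and, for the rest, CASP-like (CASPL) genes. They summed to 28900 to 35400 in m103 control arrays and 22700 to 26000 in m103 salt arrays. In m103 7 of the 24 fell, 1 rose and 16 did not pass, where 4.43% of all probe sets were called. The CASPL genes make up most of the root sum. Whether they mark root tissue was not tested, so the sum is not a measure of root content. In m103 the means of CASP1 and LSI1 were lower in salt and that of LSI2 was higher. The 4 leaf genes, 3 of them above that percentile, summed to 32100 to 34000 in control and 28900 to 31200 in salt in the first ir29-labelled set. That difference lies in CAB2R (means of 28300 and 24200), while RBCS (2910 and 3860) and RCA (1600 and 1880) were higher in salt, and none of the 4 passed. The 4 seed genes, 2 of them above it, summed to 1750 to 2040 in control and 2130 to 2320 in salt in m103. In the other sets the root, leaf and seed ranges of control and salt overlapped, and DL, a marker of the carpel and the leaf midrib, overlapped in every set. The part of these shifts in the salt results below was not tested. In such tissue, fewer cells of a type and less RNA per cell cannot be told apart.

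A member was called changed at a Benjamini-Hochberg adjusted p under 0.05 in limma, fitted to all 24 arrays and adjusted over all 57258 probe sets. Changes are differences on the log2(scaled signal + 16) scale, salt minus control, with their standard error. On that scale a change in a dim probe set comes out smaller than it is. Of the 39 member probe sets, 21 had a mean above the 40th percentile of all probe sets, a scaled signal of 27.9, and 18 lay below it.

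With salt, MADS56 fell in m103 and in both ir29-labelled sets, MADS14 fell in m103 and in the first ir29-labelled set, and MADS18 fell in the first ir29-labelled set. MADS22 rose in the second ir29-labelled set, MADS16 in m103 and MADS17 in the first ir29-labelled set. In m103, 3 of 39 member probe sets were called, 1 higher and 2 lower, where 4.43% of all probe sets were called (2.09% higher and 2.34% lower). In the first ir29-labelled set 5 were called, 1 higher and 4 lower, where 2.92% of all were called (1.74% higher and 1.18% lower). In the second 2 were called, 1 in each direction, where 4.11% of all were called (2.1% higher and 2.01% lower). In agami none was called by limma, where 0.349% of all were, and 4 member probe sets had an unadjusted p under 0.05 against 9.96% of all. For the mean of the 4 salt effects 6 were called, 1 higher and 5 lower, where 9.39% of all were called (4.91% higher and 4.48% lower). As shares of the 39, these are 7.69% in m103, 12.8% in the first ir29-labelled set, 5.13% in the second and 15.4% for the mean, with several probe sets of MADS14 counted separately. The median log2 change over the 39 probe sets was -0.056 in m103, 0.027 in agami, -0.12 in the first ir29-labelled set and -0.19 in the second. Over all probe sets it was 0.021, 0.0028, -0.0012 and -0.019 in the same order.

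**Figure D1:**
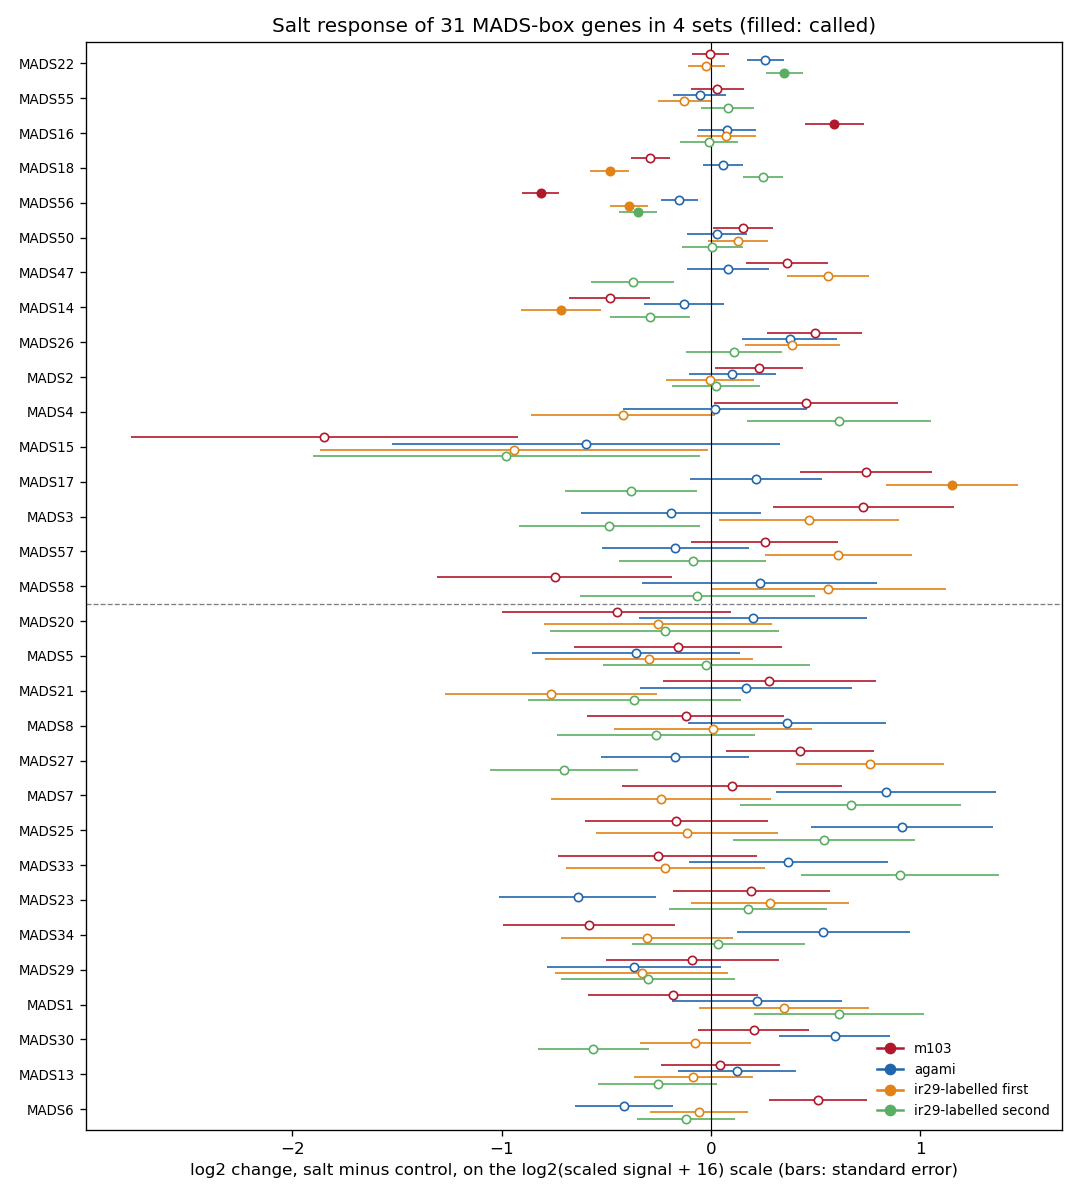
Log2 change with salt and its standard error for the brightest probe set of each of 31 MADS-box genes, in each of the 4 sets; filled points passed the threshold of adjusted p under 0.05. Genes are in order of mean level, the dashed line marks the 40th percentile of all probe sets, and the filled points lie at MADS14, MADS16, MADS17, MADS18, MADS22 and MADS56.

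MADS56 is a SOC1-class gene that in rice delays flowering under long days, opposite to its relative MADS50, which promotes it. In m103 the MADS56 signal was 1270, 1230 and 1490 in the control arrays and 755, 763 and 722 in the salt arrays. It was 2260, 2300 and 2280 in control and 1680, 1830 and 1700 in salt in the first ir29-labelled set. All salt arrays lay below all control arrays in both sets, and the replicates lay close together. In the second ir29-labelled set the signal was 2420, 2280 and 2600 in control and 2020, 1730 and 1970 in salt. In agami it was 1930, 1900 and 1820 in control and 1640, 1790 and 1660 in salt. MADS56 was thus lower in every salt array than in every control array of its own set in all 4 sets, with the narrowest gap in agami. It was the single member probe set separated downwards in all 4 sets, as were 0.258% of all probe sets, and no member was separated upwards in all 4. Its log2 change was -0.81 ± 0.09 in m103 (limma adjusted p = 2.8e-06), -0.39 ± 0.09 in the first ir29-labelled set (adjusted p = 0.013) and -0.35 ± 0.09 in the second (adjusted p = 0.026). In agami it was -0.15 ± 0.09 and did not pass (adjusted p = 0.62). The mean over the 4 sets was -0.43 ± 0.04 (adjusted p = 6e-07).

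The salt effect on MADS56 also differed among the sets. Of the 39 probe sets 2 were called for such a difference in limma's moderated F test over the 4 sets, where 2.02% of all probe sets were called. MADS56 was 1 of them, with F = 9.77 (adjusted p = 0.022). The change in agami exceeded that in m103 by 0.66 ± 0.13 (adjusted p = 0.014, 95% interval 0.40 to 0.92), and this was the single member probe set called for that difference, where 0.456% of all were. The differences of the first and second ir29-labelled sets from m103 were 0.42 ± 0.13 (adjusted p = 0.18) and 0.47 ± 0.13 (adjusted p = 0.075). The call in the first ir29-labelled set ended without its control replicate 2 (adjusted p = 0.051), salt replicate 1 (0.053) or salt replicate 3 (0.058), and that in the second without its control replicate 1 (0.081), control replicate 3 (0.096) or salt replicate 2 (0.18) and with the actin ratio as a covariate (0.23). The difference among sets ended without m103 control replicate 3 (F = 7.04, adjusted p = 0.082) and without m103 salt replicate 3 (F = 7.63, adjusted p = 0.053), while the m103 and mean calls held in every such fit. On the arrays of the lower deposited scale alone, the call in m103 held and that in the first ir29-labelled set did not (adjusted p = 0.14). The difference among sets and the calls in the first and second ir29-labelled sets also ended with median centring (adjusted p = 0.081, 0.068 and 0.11). They ended with no intensity trend as well (0.14, 0.071 and 0.11), and the call in the second ended with that set fitted alone (0.24). The m103 and mean calls held in these settings.

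Its relative MADS50 did not pass in any set. MADS50 read 1610, 1830 and 1790 in m103 control arrays and 2170, 1860 and 1810 in salt, and 1410, 1450 and 1240 against 1170, 1700 and 1670 in the first ir29-labelled set. In agami it read 1780, 2100 and 2290 in control and 2180, 2210 and 1880 in salt, and in the second ir29-labelled set 1350, 1220 and 1090 against 1400, 985 and 1320. Control and salt arrays overlap in each set, and the mean log2 change was 0.08 ± 0.07 (adjusted p = 0.64).

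**Figure D2:**
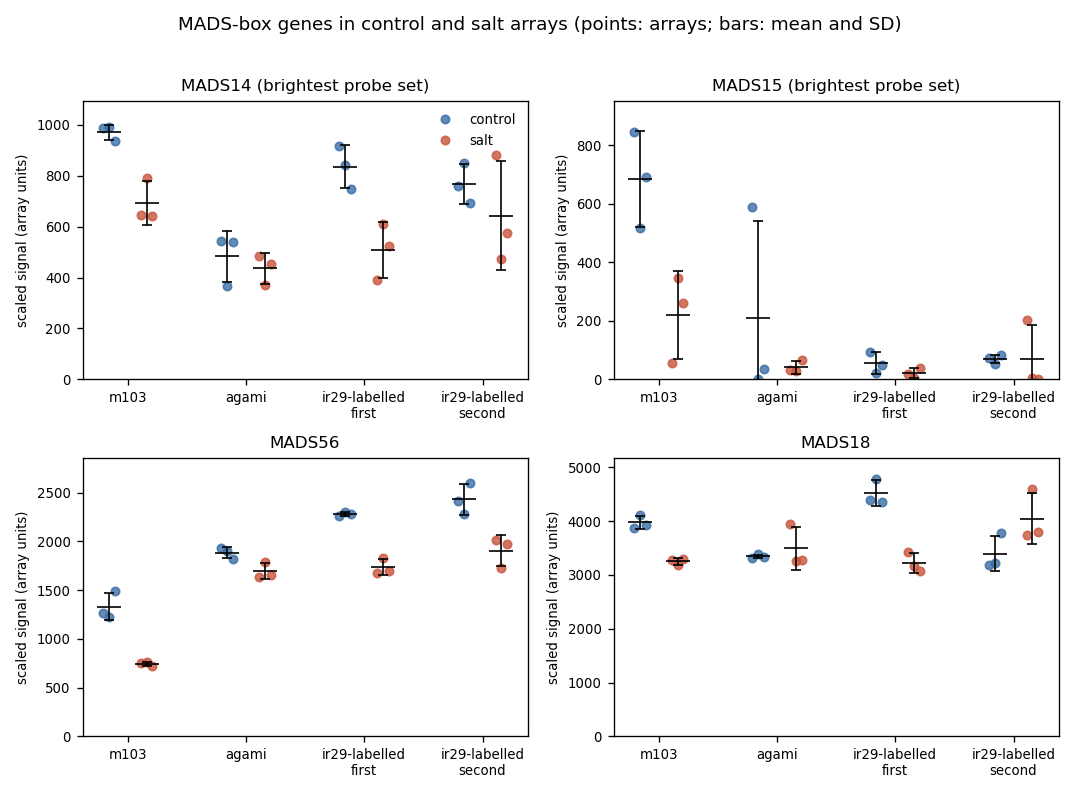
Scaled signal (vertical axes from 0) of the brightest probe sets of MADS14 and MADS15 and of MADS56 and MADS18 in every array, by set, with control in blue and salt in red; horizontal marks and bars give the mean and SD of 3 arrays. MADS56 salt arrays lie below the control arrays in each of the 4 sets, and MADS18 goes down in the first ir29-labelled set and not in the second.

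MADS14, MADS15, MADS18 and MADS20 belong to the AP1/FUL class, and in rice MADS14, MADS15 and MADS18 act with MADS34 to give the meristem its inflorescence identity after the florigen signal. The 4 probe sets of MADS14 are called here, from the brightest by mean signal, x_at, at, a_at and the dimmest, after the endings of their names. An x_at probe set may hold probes that match other transcripts, an a_at probe set detects several transcripts of 1 gene, and an s_at probe set is shared by several transcripts. All 4 probe sets of MADS14 were lower in all salt than in all control arrays in m103 and in the first ir29-labelled set. Over all probe sets, 9.89% were separated downwards in this way in m103, 8.84% in the first ir29-labelled set and 9.15% in the second. Over the 39 member probe sets it was 9, 7 and 4. The x_at probe set of MADS14 read 986, 990 and 937 in m103 control arrays and 645, 793 and 640 in salt. It read 916, 842 and 749 in control and 391, 609 and 525 in salt in the first ir29-labelled set. Both conditions are thus apart in both sets. In agami x_at read 542, 368 and 540 in control and 486, 369 and 455 in salt, and in the second ir29-labelled set 760, 849 and 692 against 883, 471 and 577, which overlap in both. The at probe set of MADS14 read 1110, 996 and 1120 in m103 control arrays and 563, 728 and 534 in salt. In the first ir29-labelled set it read 676, 613 and 593 in control and 251, 445 and 309 in salt. Its highest salt array lay well below its lowest control array in each of these sets. In the second ir29-labelled set it read 749, 722 and 710 in control and 666, 319 and 470 in salt, and in agami 342, 307 and 302 against 244, 234 and 332. The conditions stand apart in the second ir29-labelled set, with 1 salt array near the control arrays, and overlap in agami. The a_at probe set of MADS14 read 752, 504 and 467 in m103 control arrays and 296, 332 and 309 in salt, and 410, 410 and 286 against 135, 232 and 201 in the first ir29-labelled set. It read 241, 136 and 164 in control and 186, 111 and 87.8 in salt in agami, and 418, 318 and 296 against 359, 180 and 146 in the second ir29-labelled set. The conditions are apart in the former pair of sets and overlap in the latter. The dimmest probe set read 274, 204 and 215 in m103 control arrays and 88.4, 154 and 68.3 in salt, and 159, 95.1 and 132 against 68.8, 89.5 and 73 in the first ir29-labelled set. It read 99.1, 26.6 and 77.8 in control and 60.1, 51.4 and 32.3 in salt in agami, and 118, 69.8 and 64.2 against 107, 31.4 and 53.6 in the second ir29-labelled set, which overlap.

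For the at probe set the log2 change of MADS14 was -0.81 ± 0.20 in m103 (limma adjusted p = 0.019) and -0.91 ± 0.20 in the first ir29-labelled set (adjusted p = 0.012). It was -0.63 ± 0.20 in the second (adjusted p = 0.089) and -0.24 ± 0.20 in agami (adjusted p = 0.79). The agami change differed from the m103 change by 0.58 ± 0.29, which did not pass (adjusted p = 0.57, 95% interval -0.02 to 1.17). For the x_at probe set of MADS14 the change passed in the first ir29-labelled set alone, at -0.72 ± 0.19 (adjusted p = 0.039), and that call held in 1 of 6 fits with 1 of its arrays left out (adjusted p from 0.03 to 0.20). That call also ended with median centring (0.061), with no intensity trend (0.1) and with the set fitted alone (0.058). Over the mean of the 4 sets 3 of the 4 probe sets passed, at -0.65 ± 0.10 (at, adjusted p = 0.00012), -0.71 ± 0.15 (a_at, adjusted p = 0.0019) and -0.41 ± 0.10 (x_at, adjusted p = 0.0065). The dimmest was at -0.60 ± 0.19 (adjusted p = 0.051). The 3 mean calls held in all 24 fits with 1 array left out. For the at probe set the m103 call ended without control replicate 1 (adjusted p = 0.078) or 3 (0.076) or salt replicate 1 (0.069) or 3 (0.09), and that in the first ir29-labelled set without control replicate 1 (0.054) or salt replicate 1 (0.084) or 3 (0.053). The m103 call of this probe set also ended with no intensity trend (0.056).

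MADS15, which acts redundantly with MADS14 in rice, had 3 probe sets above the 40th percentile, and all 3 were lower in salt without overlap in m103 and overlapped in the other sets. The brightest, a_at, read 846, 518 and 691 in m103 control arrays and 54.3, 345 and 260 in salt. The x_at probe set read 325, 490 and 353 in control and 100, 179 and 149 in salt. The s_at probe set read 304, 320 and 326 in control and 78.6, 174 and 76 in salt. The lowest m103 control array thus stood well above the highest m103 salt array in each of the 3 probe sets. Their log2 changes in m103 were -1.85 ± 0.93 (a_at), -1.36 ± 0.76 (x_at) and -1.49 ± 0.55 (s_at), which did not pass in the fit to all 24 arrays (adjusted p = 0.37, 0.45 and 0.15). In a fit to the 6 m103 arrays alone, where the standard errors were smaller, x_at and s_at passed at -1.36 ± 0.24 (adjusted p = 0.017) and -1.49 ± 0.29 (adjusted p = 0.025), and a_at did not (-1.85 ± 0.52, adjusted p = 0.094). In the mean of the 4 sets x_at passed at -1.22 ± 0.38 (adjusted p = 0.042), a call that held in 4 of 24 fits with 1 array left out (changes from -1.44 to -0.96, adjusted p up to 0.088). It also ended with median centring (0.05), with no intensity trend (0.085) and with the actin ratio as a covariate (0.16).

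Outside m103 single arrays of MADS15 stood far from their replicates. In agami control the a_at probe set read 590, 2.6 and 35.9, against 30.6, 27.4 and 67.4 in agami salt. Agami control replicate 1 was also the highest for the x_at probe set, which read 337, 8.1 and 53.1 in agami control and 6.4, 6.1 and 8.7 in salt, and for s_at, which read 133, 1.7 and 17.8 in control and 36.2, 5.5 and 40.9 in salt. The high value is thus shared by 3 probe sets of the gene. In the second ir29-labelled set a_at read 72.9, 52.5 and 82 in control and 204, 3.1 and 2.6 in salt. There x_at read 105, 90.6 and 89.9 in control and 218, 32.3 and 12.1 in salt, and s_at read 102, 96.3 and 53.1 against 150, 61.4 and 52.1. That high array, salt replicate 1, was also the highest of the 3 salt arrays for all 4 probe sets of MADS14, at 883 (x_at), 666 (at), 359 (a_at) and 107 (dimmest). Its actin ratio was 6.77. Salt replicates 2 and 3, lower for all of these probe sets, have the highest actin ratios of all arrays, 10.1 and 9.34. The part of RNA integrity in these values was not tested. For the first ir29-labelled set a_at read 94.4, 20 and 49.3 in control and 19.1, 3.3 and 38 in salt, x_at 146, 49.1 and 20.4 against 3.52, 72.5 and 15.2, and s_at 65.3, 58.7 and 39.1 against 34.2, 41.7 and 54. All 3 overlap there. The dimmest MADS15 probe set read at most 32.8 in any array.

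MADS18, the broadly expressed member of the class, was the other gene whose salt effect differed among the sets (F = 12.45, limma adjusted p = 0.0091). It read 4400, 4790 and 4360 in control and 3430, 3160 and 3080 in salt in the first ir29-labelled set, and 3880, 4120 and 3930 against 3280, 3180 and 3290 in m103. In the second ir29-labelled set it read 3190, 3230 and 3770 in control and 3740, 4590 and 3800 in salt, and in agami 3320, 3380 and 3340 against 3950, 3250 and 3280. Salt arrays lay below control arrays without overlap in the first ir29-labelled set and in m103, and the groups overlapped in the others. The log2 change was -0.48 ± 0.09 in the first ir29-labelled set (adjusted p = 0.0033), -0.29 ± 0.09 in m103 (adjusted p = 0.087), 0.06 ± 0.09 in agami (adjusted p = 0.92) and 0.25 ± 0.09 in the second ir29-labelled set (adjusted p = 0.16). The change in the second exceeded that in the first by 0.73 ± 0.13 (adjusted p = 0.0062), where 1.4% of all probe sets were called, and that in m103 by 0.54 ± 0.13 (adjusted p = 0.046), where 1.08% were. Only 1 member probe set was called in each of these differences. The F call held in all 24 fits with 1 array left out and ended with no intensity trend (adjusted p = 0.096). The call in the first ir29-labelled set ended in a fit to the arrays of the lower deposited scale alone, 4 of them from that set (adjusted p = 0.083).

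MADS20 and MADS34 lay below the 40th percentile. MADS34, also called PAP2, is the E-class partner of the AP1/FUL genes in the inflorescence meristem. It read 26.4, 43.3 and 30.2 in m103 control arrays and 14.4, 43.5 and 3.07 in salt, and 1.32, 28.7 and 5.1 against 4.02, 5 and 4.56 in the first ir29-labelled set. In agami it read 13.5, 1.6 and 10.7 in control and 12.3, 36.2 and 12.6 in salt, and in the second ir29-labelled set 15.9, 1.7 and 1.3 against 17.9, 1.6 and 1.6. The conditions overlap in every set at these low signals, and no change passed (log2 -0.58 to 0.54, adjusted p of 0.61 and above). MADS20 did not pass for salt in any set, at -0.45 to 0.20.

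The SVP class, MADS22, MADS47 and MADS55, holds brakes on brassinosteroid responses and on the step to floral meristem identity. MADS22 read 7730, 9000 and 9690 in control and 11300, 11400 and 10800 in salt in the second ir29-labelled set, and 7580, 7970 and 7740 against 9040, 9850 and 8990 in agami. The conditions did not overlap in either set. Of all probe sets, 8.62% were separated upwards in the second ir29-labelled set and 8.01% in agami, and of the 39 member probe sets it was 1 and 2. In m103 it read 7600, 8220 and 8640 in control and 7360, 8810 and 8240 in salt, and in the first ir29-labelled set 10600, 10800 and 11600 against 10500, 10700 and 11300, with wide overlap in both. Its log2 change was 0.35 ± 0.09 in the second ir29-labelled set (limma adjusted p = 0.024) and 0.26 ± 0.09 in agami, the lowest adjusted p of any member there (0.26). The mean of the 4 sets was 0.15 ± 0.04 (adjusted p = 0.038). The call in the second set ended with the actin ratio as a covariate (adjusted p = 0.30) and with quantile normalization (adjusted p = 0.13), and on leaving out its control replicate 1 (0.17) or its salt replicate 2 (0.12). With no intensity trend (0.12) and with the set fitted alone (0.26) that call ended as well. The mean call held in 10 of 24 fits with 1 array left out (adjusted p up to 0.083) and ended with the actin ratio as a covariate (adjusted p = 0.21). It also ended with quantile normalization (0.11), median centring (0.057) and no intensity trend (0.14).

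MADS47 read 1010, 1100 and 1060 in control and 1570, 1130 and 1430 in salt in m103, and 1290, 1710 and 1370 against 1730, 2100 and 2690 in the first ir29-labelled set. Salt arrays were higher without overlap in both, and neither change passed (0.36 ± 0.20, adjusted p = 0.43, and 0.56 ± 0.20, adjusted p = 0.15). Of all probe sets, 10.8% were separated upwards in m103 and 9.37% in the first ir29-labelled set. Of the 39 member probe sets it was 4 and 3, no more than those shares. It read 1240, 1490 and 1670 in control and 1810, 1390 and 1450 in salt in agami, which overlap, and was far lower in the second ir29-labelled set (119, 204 and 226, then 168, 112 and 123). MADS55 read 3960, 3690 and 4060 in control and 4090, 3860 and 4000 in salt in m103, and 5450, 8180 and 7330 against 6340, 7720 and 5980 in agami. It read 6210, 6600 and 6380 in control and 5270, 5920 and 6430 in salt in the first ir29-labelled set, and 8350, 6280 and 6460 against 7780, 7120 and 7230 in the second. Its conditions overlapped in all 4 sets, with log2 changes between -0.13 and 0.08.

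Of the floral organ classes, MADS16 and MADS17 each passed in 1 set. MADS16, the B-class gene of lodicules and stamens also called SPW1, read 1620, 1620 and 1600 in m103 control arrays and 2090, 3080 and 2240 in salt. All 3 m103 salt arrays were above the control arrays, and 1 of them stood apart upwards. The log2 change was 0.59 ± 0.14 (limma adjusted p = 0.013), and without that array, salt replicate 2, it was 0.42 and did not pass (adjusted p = 0.13). The m103 call also ended with no intensity trend (adjusted p = 0.065). In agami MADS16 read 3350, 4370 and 4420 in control and 4430, 4170 and 4110 in salt, in the first ir29-labelled set 9170, 11600 and 11400 against 9540, 12500 and 11800, and in the second 7870, 8340 and 8000 against 9140, 6700 and 8390. These 3 sets overlap, with changes between -0.01 and 0.08. MADS17, of the AGL6 class, read 36.3, 57.5 and 40 in control and 83.9, 163 and 116 in salt in the first ir29-labelled set, and 31.1, 47.3 and 37.8 against 85.9, 62.1 and 78.3 in m103. In the second ir29-labelled set it read 73.7, 73.6 and 86.1 in control and 72, 33.9 and 68.6 in salt. Salt arrays were thus higher without overlap in m103 and the first ir29-labelled set and lower without overlap in the second, and in agami (34, 40.5 and 40.1 against 47.2, 39.7 and 54.4) they overlapped. Of all probe sets, 10.8% and 9.37% were separated upwards in the former 2 sets and 9.15% downwards in the second ir29-labelled set. The log2 change passed in the first ir29-labelled set at 1.15 ± 0.32 (adjusted p = 0.047), a call that held in 4 of 11 other settings and in 1 of 6 fits with 1 array left out (adjusted p from 0.038 to 0.22). It did not pass in m103 (0.74 ± 0.32, adjusted p = 0.25) or in the second ir29-labelled set (-0.38 ± 0.32, adjusted p = 0.69).

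The remaining floral organ genes gave no call for salt. The E-class genes MADS1, MADS5, MADS7 and MADS8, which act in the floret and its organs, lay below the 40th percentile and read at most 50.9, 62.4, 74.6 and 57.8 in any array. So did the AGL6-class gene MADS6, at most 25, and the ovule-class genes MADS13 and MADS21, at most 29.8 and 66. By mean level over all arrays MADS6, MADS13 and MADS1 lie at the 2.57, 3.57 and 11.8 percentiles of all probe sets, and the other 4 between 33.1 and 38.7. MADS58, of the C class that specifies stamens and carpels, read between 3.7 and 86.1. The B-class gene MADS4 read between 15.5 and 210, with log2 changes from -0.42 to 0.61. Among the genes outside the flower, MADS26, an AGL12-class gene linked to the response to drought and pathogens, read 345, 441 and 294 in m103 control arrays and 556, 542 and 432 in salt. It had changes of 0.11 to 0.49 in the 4 sets and a mean of 0.34 ± 0.11 that did not pass (adjusted p = 0.062). MADS57, an AGL17-class gene that acts on tillering, read 57.4, 48.7 and 34 in control and 85.9, 96.1 and 57.8 in salt in the first ir29-labelled set, a change of 0.61 ± 0.35 (adjusted p = 0.49). It read 47.5, 72.3 and 36.5 against 86.1, 65.3 and 44.5 in m103, 79.9, 43.5 and 58.7 against 53, 65.7 and 37.1 in agami, and 49.4, 31.9 and 66.1 against 63, 32.7 and 39.8 in the second ir29-labelled set. Those 3 sets overlap, with changes between -0.17 and 0.26. MADS23, MADS25 and MADS27, also AGL17-class, MADS29 and MADS30, of the Bsister class of seed tissues, and MADS33 lay below the 40th percentile with no call.

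More MADS-box probe sets differed among the sets than between control and salt. On control arrays alone 16 of the 39 member probe sets differed among the 4 sets in the moderated F test, where 23.9% of all probe sets did. For the median member probe set, the set accounted for 33.3% of the sum of squares of the log2 values over 24 arrays, salt for 2.95%, a salt effect differing by set for 6.5% and replicate arrays for 43.4%. The medians over all probe sets were 22.3%, 2.68%, 9.61% and 54.8%. The set share reached 95.7% for MADS47 and 95.2% for MADS16, while for MADS18 it was 9.86% and the salt effect differing by set held 59.7%. For the MADS14 probe sets salt held 18.5% to 26%, and for MADS56 it held 18.1%. A sequence difference between cultivars under the probes and a difference in transcript level cannot be told apart in any of the comparisons between sets. All 9 arrays of the lower deposited scale are from m103 (5) and the first ir29-labelled set (4), so set and deposited scale are partly confounded. The 10 member probe sets with the largest F among control arrays kept their call with the class of deposited scale as a covariate.

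**Figure D3:**
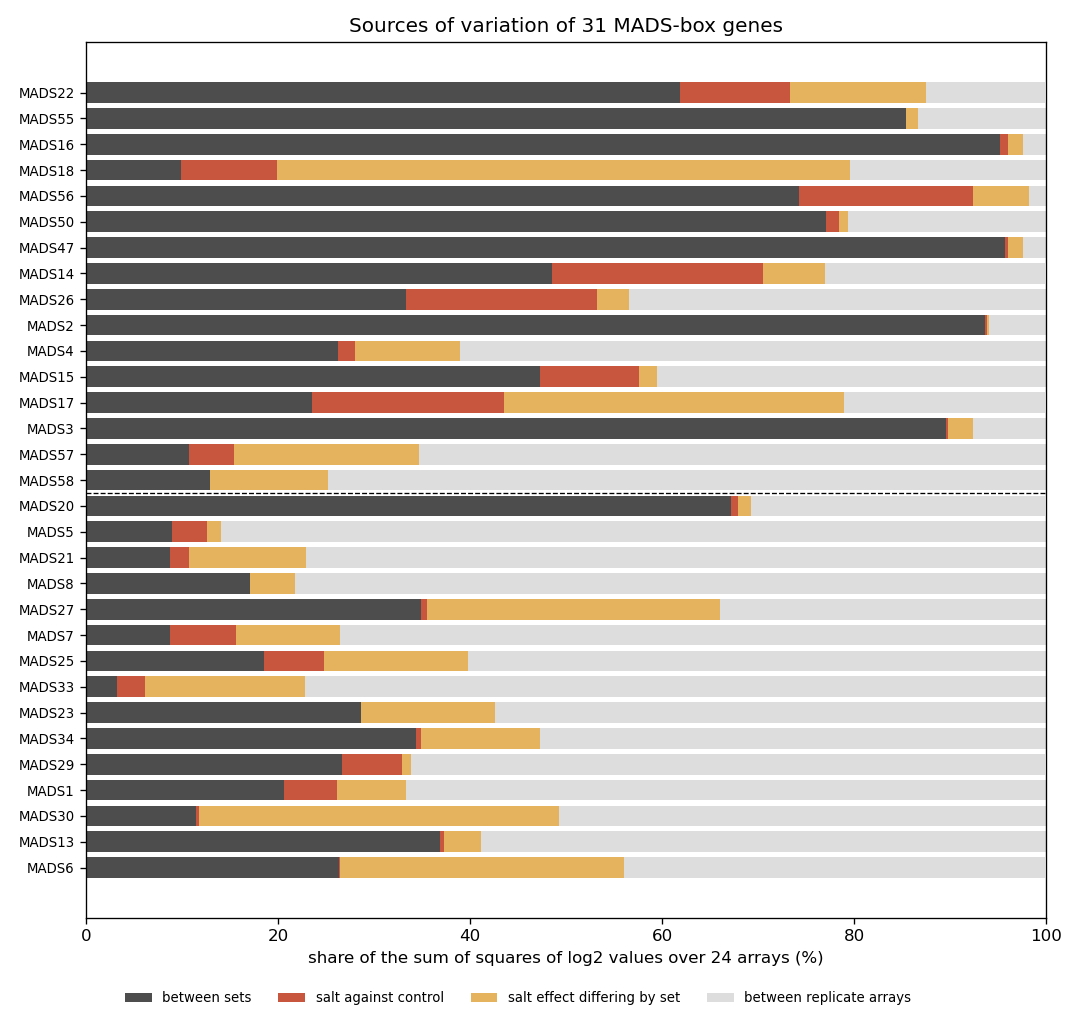
Shares of the sum of squares of log2 values over 24 arrays (horizontal axis, %) for the brightest probe set of each of 31 MADS-box genes, split into sets, salt against control, a salt effect differing by set, and replicate arrays. The set share dominates MADS47 (95.7%) and MADS16 (95.2%), and MADS18 is dominated by the salt effect differing by set (59.7%).

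MADS16, MADS2 and MADS3, of the B and C classes, were higher in the ir29-labelled sets than in the japonica cultivars, and the other B and C genes, MADS4 and MADS58, did not pass the F test. MADS16 read 1620, 1620 and 1600 in m103 control arrays, 3350, 4370 and 4420 in agami, 9170, 11600 and 11400 in the first ir29-labelled set and 7870, 8340 and 8000 in the second. The sets form an ascending order of m103, agami, second and first ir29-labelled set with no overlap. Every step of that order passed except the last, where the second ir29-labelled set minus the first was -0.40 ± 0.14 (limma adjusted p = 0.091). The ir29-labelled sets exceeded the japonica cultivars by 1.86 ± 0.10 (adjusted p = 2.5e-13), in a comparison where 8 member probe sets were called and 18.2% of all probe sets were. MADS2, with MADS4 the PISTILLATA-like pair of the B class, read 229, 205 and 210 in m103, 215, 293 and 222 in agami, 727, 756 and 936 in the first ir29-labelled set and 883, 1020 and 944 in the second. The lowest ir29-labelled array lay far above the highest japonica array, and the difference was 1.86 ± 0.15 (adjusted p = 4.6e-10). MADS2 did not pass within the japonica pair (0.16 ± 0.21, adjusted p = 0.83) or within the ir29-labelled pair (0.23 ± 0.21, adjusted p = 0.66). MADS3, the C-class gene for stamen identity, read 6.91, 5.41 and 4.41 in m103 and 30.6, 3.7 and 5 in agami. In the first ir29-labelled set it read 187, 196 and 123, and in the second 189, 161 and 205. The japonica arrays were near the bottom of the signal range and the ir29-labelled arrays were not, and the difference was 2.99 ± 0.31 (adjusted p = 3.8e-08).

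MADS47 parted the sets that share the label ir29. It read 1290, 1710 and 1370 in control arrays of the first and 119, 204 and 226 in control arrays of the second, and its salt arrays in the second read 168, 112 and 123. The second set was below all arrays of the other 3 sets in both conditions. On control arrays the second set minus the first was -2.92 ± 0.20 on the log2 scale (limma adjusted p = 1.1e-10), minus agami -2.93 ± 0.20 (adjusted p = 3.6e-11) and minus m103 -2.48 ± 0.20 (adjusted p = 7.3e-10). Agami minus m103 was 0.46 ± 0.20 (adjusted p = 0.22). Between the ir29-labelled sets 3 member probe sets were called, all lower in the second, where 7.11% of all probe sets were called and 3.56% were lower. The other 2 were MADS18 (-0.41 ± 0.09, adjusted p = 0.0056) and MADS22 (-0.32 ± 0.09, adjusted p = 0.024).

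The m103 control arrays lay above all control arrays of the other 3 sets for all 4 MADS14 probe sets. For the at probe set the agami control arrays lay below those of all other sets. The difference between agami and m103 was -1.71 ± 0.20 (limma adjusted p = 2e-06). The first ir29-labelled set exceeded agami by 0.95 ± 0.20 (adjusted p = 0.0015) and lay below m103 by -0.76 ± 0.20 (adjusted p = 0.012). The second exceeded agami by 1.16 ± 0.20 (adjusted p = 0.00017) and did not pass against m103 (-0.55 ± 0.20, adjusted p = 0.070) or against the first (0.21 ± 0.20, adjusted p = 0.70). All 4 MADS14 probe sets were called lower in agami than in m103, with differences of -1.71 (at), -1.67 (dimmest), -1.59 (a_at) and close to -1 (x_at), among 8 member probe sets called in that pair, where 6.28% of all were. For the s_at probe set of MADS15 the control arrays read 304, 320 and 326 in m103 and at most 133 in any other control array. The difference from m103 was -2.89 ± 0.55 in agami (adjusted p = 0.001), -2.26 ± 0.55 in the first ir29-labelled set (adjusted p = 0.0053) and -1.77 ± 0.55 in the second (adjusted p = 0.026). MADS20, whose control arrays read 64.5, 118 and 110 in agami, read 3.96, 50.1 and 5.1 in the first ir29-labelled set, a difference of -1.87 ± 0.55 (first minus agami, adjusted p = 0.021). Against m103, 10 member probe sets were called in the first ir29-labelled set and 11 in the second, where 13% and 16.1% of all were. Against agami it was 11 and 9, where 13.7% and 14.2% of all were.

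**Figure D4:**
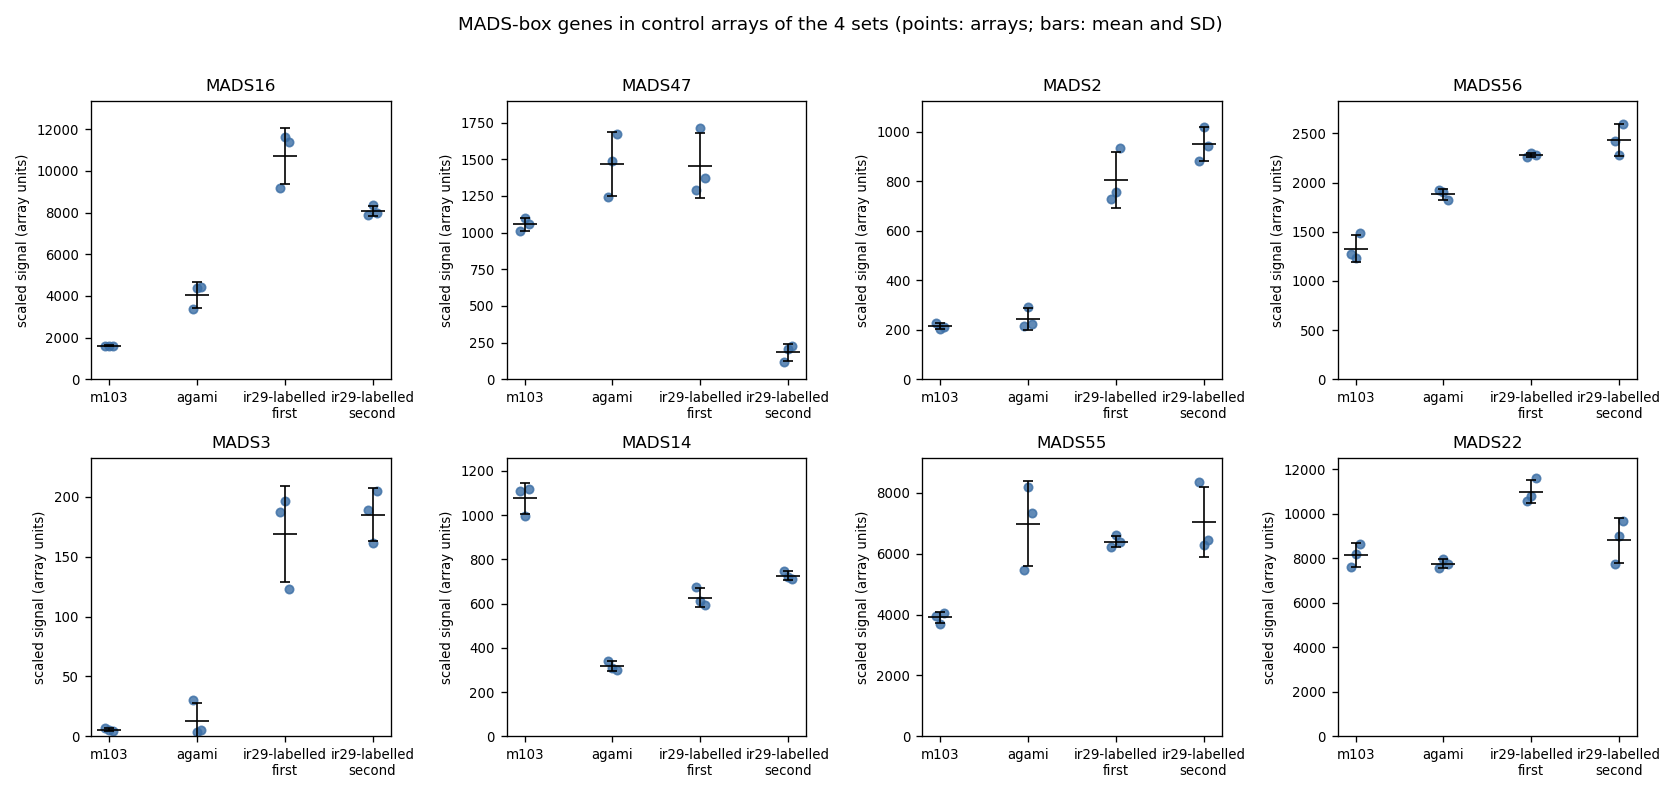
Scaled signal (vertical axes from 0) of 8 MADS-box genes in the control arrays of the 4 sets, with a point per array and marks and bars for the mean and SD of 3 arrays; these are the genes with the largest F among sets, and MADS14 is shown by its at probe set. MADS16, MADS2 and MADS3 are higher in both ir29-labelled sets than in m103 and agami, and MADS47 is low in the second ir29-labelled set alone.

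The flowering-time and SVP genes gave smaller steps. MADS56 control arrays were ordered m103, agami, first and second ir29-labelled set, and every pair passed except the last (0.09 ± 0.09, limma adjusted p = 0.71). Agami exceeded m103 by 0.50 ± 0.09 (adjusted p = 0.00045), and the first ir29-labelled set exceeded agami by 0.27 ± 0.09 (adjusted p = 0.040). MADS50 went the other way, at -0.55 ± 0.10 for the ir29-labelled sets minus the japonica cultivars (adjusted p = 0.00025). MADS55 read 5450, 8180 and 7330 in agami, 6210, 6600 and 6380 in the first and 8350, 6280 and 6460 in the second ir29-labelled set, all above the m103 range of 3690 to 4060. Each of these 3 sets exceeded m103, by 0.82 ± 0.13, 0.71 ± 0.13 and 0.83 ± 0.13 (adjusted p = 8.4e-05, 0.00021 and 2.3e-05), and they did not differ beyond their spread from each other. MADS22 was higher in the first ir29-labelled set than in m103 (0.43 ± 0.09, adjusted p = 0.0011), agami (0.50 ± 0.09, adjusted p = 0.00019) and the second.

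Genes that act with or next to MADS-box factors in flowering and panicle branching were taken from a list of 44 names, of which 20 genes had a probe set. In m103 2 rose and 18 did not pass, in agami none of the 20 passed, in the first ir29-labelled set 1 rose, 1 fell and 18 did not pass, and in the second none passed. For the mean of the sets 4 rose, 3 fell and 13 did not pass. Of all probe sets, 4.43% were called in m103, 0.349% in agami and 2.92% in the first ir29-labelled set. It was 4.11% in the second and 9.39% for the mean. Each gene was counted by its brightest probe set, and the list holds OSH1 and DL, which are also markers above. The list's median log2 change was 0.14 in m103, -0.11 in agami, -0.018 in the first ir29-labelled set and -0.077 in the second. Over all probe sets the median was 0.021, 0.0028, -0.0012 and -0.019 in the same order. PHYA, the far-red light receptor phytochrome A, read 893, 1050 and 905 in m103 control arrays and 2080, 1900 and 1620 in salt (its at probe set). It read 1530, 1700 and 1700 in control and 2830, 2770 and 3380 in salt in the first ir29-labelled set. Salt arrays were well above control arrays in both, and in the second ir29-labelled set they lay within the control range, at 1470, 1560 and 1520 against 1300, 1530 and 1580. The log2 change was 0.96 ± 0.13 in m103 (limma adjusted p = 3.2e-05), 0.85 ± 0.13 in the first (adjusted p = 0.00019), 0.19 ± 0.13 in agami (adjusted p = 0.68) and 0.05 ± 0.13 in the second (adjusted p = 0.94). The salt effect differed among the sets for this probe set (F = 13.28, adjusted p = 0.0069) and did not pass for the brighter s_at probe set (F = 7.29, adjusted p = 0.056), which rose by 0.87 ± 0.12 in m103 and 0.67 ± 0.12 in the first ir29-labelled set.

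SPL14, which shapes tillering and panicle branching, read 1690, 2110 and 1740 in m103 control arrays and 3030, 3190 and 3040 in salt, a rise of 0.75 ± 0.13 (limma adjusted p = 0.00061). In agami it read 1620, 2060 and 2160 in control and 2010, 1760 and 1640 in salt. The groups were far apart in m103 and overlapped in agami. In the first ir29-labelled set it read 2200, 2670 and 2490 against 2620, 2460 and 2300, and in the second 3180, 3660 and 4120 against 4000, 5300 and 4550, which both overlap. The difference of its salt effect among sets passed (F = 9.19, adjusted p = 0.027). OSH1, the KNOX gene that keeps the shoot meristem undetermined, read 2230, 2650 and 2080 in m103 control arrays and 3260, 3560 and 3470 in salt for its x_at probe set, a rise of 0.57 ± 0.12 (adjusted p = 0.0042). Its brighter at probe set, the one counted, read 4460, 4960 and 3990 in control and 6630, 7250 and 6390 in salt in m103, a change of 0.60 ± 0.20 that did not pass (adjusted p = 0.11). Both probe sets separate the conditions in m103. In the mean of the sets it rose by 0.31 ± 0.06 for x_at (adjusted p = 0.00079) and by 0.55 ± 0.10 for its at probe set (adjusted p = 0.00075). PHYB, the red light receptor, rose in the mean by 0.22 ± 0.06 (adjusted p = 0.014). GI, a clock-associated gene upstream of Hd1, read 3320, 3940 and 4370 in m103 control arrays and 1550, 1780 and 2000 in salt, and 1400, 2200 and 2850 against 295, 751 and 1240 in the first ir29-labelled set. Its salt arrays lay below its control arrays in all 4 sets, and it fell in the mean by 1.19 (SE 0.17, adjusted p = 4.5e-05). The change in the first ir29-labelled set was -1.63 ± 0.34 (adjusted p = 0.0067) and no longer passed without that set's control replicate 3 (0.057) or salt replicate 1 (0.053). Nor did it pass with that set fitted alone (0.093) or on the arrays of the lower deposited scale alone (0.17). Ehd4, an activator of the florigen pathway, fell in the mean by 0.34 (SE 0.09, adjusted p = 0.014), and GF14b, a 14-3-3 protein that binds the florigen, by 0.18 (SE 0.06, adjusted p = 0.045). The GF14b call held in 6 of 24 fits with 1 array left out (adjusted p up to 0.09). With the actin ratio as a covariate the mean calls of GF14b (adjusted p = 0.34), Ehd4 (0.054), PHYB (0.075) and SPL14 (0.19) ended. These calls also ended with no intensity trend (0.14, 0.052, 0.057 and 0.053 in the same order), and that of GF14b with median centring (0.078). Hd3a, the florigen that turns on MADS14 and MADS15 in rice, read at most 67.5 in any array and had a mean change of -0.70 ± 0.24 that did not pass (adjusted p = 0.063).

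**Figure D5:**
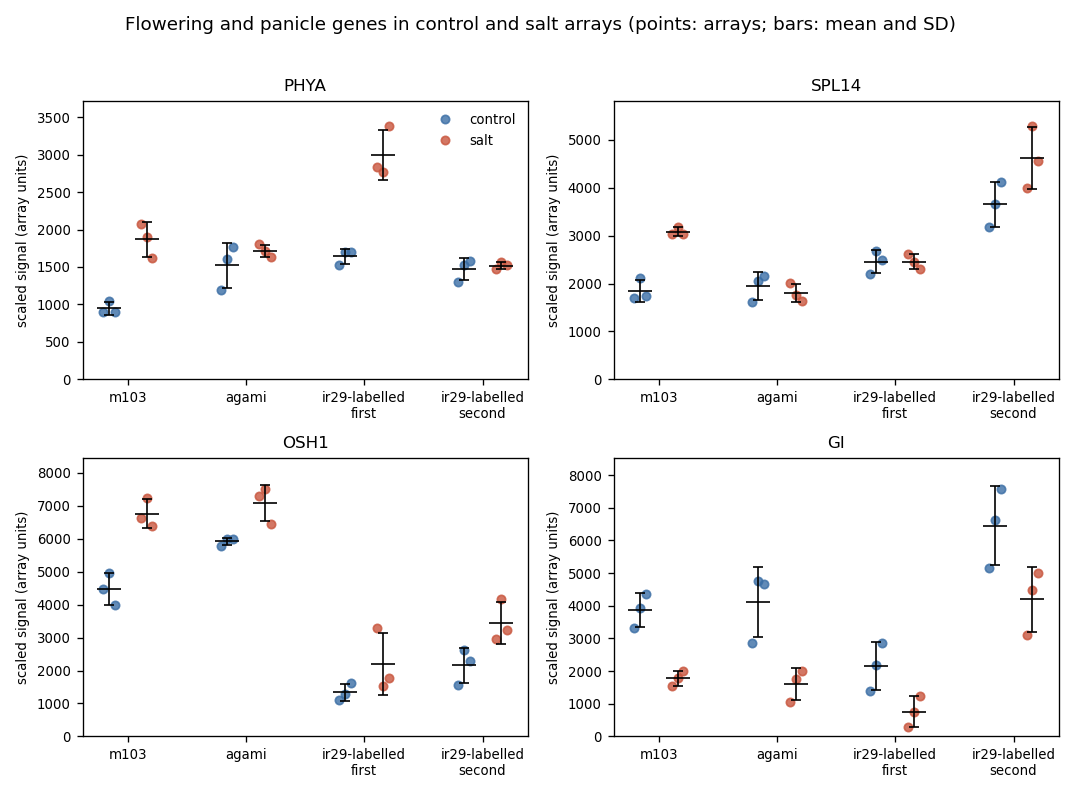
Scaled signal (vertical axes from 0) of PHYA, SPL14, OSH1 (its at probe set) and GI in every array, by set, with control in blue and salt in red; marks and bars give the mean and SD of 3 arrays. PHYA and SPL14 salt arrays stand above control arrays in m103, and GI salt arrays lie below control arrays in all 4 sets.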

How the data were processed

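RNA from 24 rice samples was hybridised to Affymetrix rice arrays, 1 colour and 1 sample per array. The authors deposited 1 signal intensity per probe set and array. Per the submitters' processing notes GCOS 1.2 was used, while the signal algorithm and a genome build were not given in the sources used here. Deposited intensities have a trimmed mean of 500.1 in 15 arrays and of 58.79 to 115.7 in the other 9 (5 m103 arrays and 4 from the first ir29-labelled set). Each array was therefore multiplied to a trimmed mean of 500, with 2% of the 57381 probe sets left out at each end, and log2(scaled signal + 16) was taken. The number of arrays, 3 per group, limits the precision, and p-values set a difference against the spread between replicate samples.

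Group means of 8 groups were fitted with limma 3.58.1 (moderated tests with an intensity trend, 16 residual degrees of freedom, R 4.3.3) over 57258 probe sets after 123 control probe sets were left out, with no filter on level. P-values were two-sided and Benjamini-Hochberg adjusted over all probe sets of a comparison, and those called had an adjusted p under 0.05. Standard errors pool the spread of all groups. Fits to other settings and with each array left out were made the same way, and the fit was tested on simulated data. Figures were drawn with matplotlib 3.10.9.

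Probe sets were named from the platform annotation and the reference gene table, using those with a single gene. From the list of 44 names for flowering and panicle branching, 5 genes that share a name with an unrelated gene were left out. All members could be named. Values in every array are given for members called for salt and for those of the floral transition and inflorescence meristem except the dimmest MADS15 probe set, and in control arrays for the 10 probe sets with the largest F among sets. The members, the lists and the tests were chosen with earlier results of these data known. Replicate numbers were checked for pairing: control and salt samples of a set with the same number correlated in their deviations by -0.0503 to 0.204. The highest correlation with another number was -0.0639 to 0.108. The numbers were not taken to pair samples, though with 3 arrays per group this check cannot exclude pairing.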

Additional observations from a re-analysis of the deposited data

Results flagged for a closer look

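Among the MADS-box members and the flowering and panicle list, the salt effect of 4 genes differed among the 4 sets in limma's moderated F test: MADS18 with F = 12.45, MADS56 with F = 9.77, PHYA with F = 13.28 and SPL14 with F = 9.19. MADS18 went down in the first ir29-labelled set and not in the second, MADS56 went down most in m103 and least in agami, PHYA rose in m103 and the first ir29-labelled set, and SPL14 rose in m103. For MADS17, control and salt arrays did not overlap in 3 sets, with salt higher in m103 (log2 change 0.742, adjusted p = 0.25) and in the first ir29-labelled set (1.15, adjusted p = 0.047) and lower in the second (-0.381, adjusted p = 0.69). Such separation is common: of all probe sets, 10.8% were separated upwards in m103, 9.37% upwards in the first ir29-labelled set and 9.15% downwards in the second. The F test over the 4 sets did not pass for MADS17 (F = 4.42, adjusted p = 0.19), nor did the second ir29-labelled set minus the first (-1.53 ± 0.45, adjusted p = 0.086).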

How the results depend on the processing

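Of 44 named results, 25 kept their call in every setting other than leaving out an array, and 31 kept it in every fit with 1 array left out. None of the salt changes among them turned its direction in any setting. The F values among them have no sign and could not turn. These results were named from the same data, as called or as the largest F, so these counts do not measure how stable results are in general. The causes of the moves below were not tested. The counts are of member probe sets, with those of 1 gene counted separately. Shares of all probe sets under each setting are not given here, so a move of the members cannot be told from a move of all calls. In the first ir29-labelled set 5 member probe sets were called, and 2 with median centring, 3 with no intensity trend, 3 with the set fitted alone and 2 with arrays of 1 deposited scale. In the second 2 were called, and 1 with quantile normalization, 1 with median centring, 0 with no intensity trend, 0 with the set alone and 0 with the actin ratio as a covariate. In m103 3 were called, and 1 with no intensity trend and 7 with the set alone. Those 7 are probe sets of MADS14, MADS15, MADS16 and MADS56. For the salt effect differing among sets 2 were called, and 1 with median centring and 0 with no intensity trend. With 1 array left out the calls numbered 2 to 3 in m103, 0 in agami, 1 to 4 in the first and 0 to 4 in the second ir29-labelled set, 4 to 9 for the mean, 1 to 3 for the difference among sets and 14 to 18 among control arrays. With the replicate number as a replicate block, 9 member probe sets in place of 16 differed among control arrays, and MADS50 (adjusted p = 0.11) and MADS15 s_at (0.12) were among those that ended. The check of the numbers described above did not settle whether they pair the samples. Signals near the bottom of the range, as for the 18 member probe sets below the 40th percentile, cannot show small changes.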
